A study of Homo sapiens with 6 samples.

Results

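The genes described here serve protein folding and the stress response of the endoplasmic reticulum (ER). They are 39 genes picked by name from the 58735 genes of the count table, and each name matched 1 row. All 39 had enough counts to be among the 15496 genes tested. The list holds the stress sensors and their transcription factors, the chaperone BiP and its helpers with GRP94, the calnexin cycle, the disulfide enzymes, the channel through which new proteins enter the ER, and the machinery that removes misfolded ones.

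The libraries came from SW1990, an established human cell line of pancreatic ductal adenocarcinoma, and poly(A) RNA was sequenced. In 3 libraries (EPZ) the cells had received 5 µM EPZ-5676, an inhibitor of the histone H3 lysine methyltransferase DOT1L. In the other 3 libraries (control) the cells had received DMSO according to the treatment protocol, while the sample annotation calls them untreated. The labels give neither the duration of treatment nor whether replicates were separate cultures, so p-values measure the spread among these 6 libraries alone and it may be technical.

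Proteins bound for secretion or for membranes are threaded into the ER through the Sec61 channel, folded by chaperones, given disulfide bonds and checked by lectins before export. Proteins that do not fold are sent back across the membrane for degradation. When unfolded proteins accumulate, the sensors IRE1, PERK and ATF6 start the unfolded protein response, which slows translation and raises transcription of chaperone genes through the ER stress response element of their promoters. Exocrine pancreas cells secrete large amounts of enzyme and depend on this system.

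The unfolded protein response is read from promoters by short motifs, and 4 of them were searched on both strands in the RefSeq promoter windows of GRCh38.p14, which run from 250 bases before to 50 bases after a gene's start. Windows were found for 36 of the 39 genes, and not for DERL1, DERL3 and PDIA3. The ER stress response element, CCAAT followed after 9 bases of any kind by CCACG, was present in 8 of the 36 genes (22.2%), against 25 of 27305 genes with a window (0.0916%) and 16 of the 10492 tested genes among them (0.152%). The list was drawn up from known ER stress genes, so this share is a description of the list. The 8 genes were HSPA5, HSP90B1, CANX, PDIA6, XBP1, CALR, CRELD2 and ERO1B. The first 5 had fewer counts in EPZ libraries by the test described below, and the other 3 did not pass it. Of these 3, ERO1B had few counts and a log2 fold change of -0.50 ± 0.29 (SE), against -0.30 ± 0.10 for XBP1, which passed. Transcript GC content was 41.2 to 46.0% in the first 5, 53.9% in CALR, 54.5% in CRELD2 and 37.0% in ERO1B. In the same test 38.5% of the 39 genes and 18.7% of all genes tested fell. The part of the element in these calls was not tested. Stretches of the first 5 and of CALR are shown because they let the element be compared between genes that fell and a gene that did not pass; capitals mark the element, which stands on the other strand in CALR and in the second copy of HSP90B1.
HSPA5, chr9:125241379-125241421, minus strand: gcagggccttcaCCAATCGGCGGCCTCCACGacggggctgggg
PDIA6, chr2:10812841-10812883, minus strand: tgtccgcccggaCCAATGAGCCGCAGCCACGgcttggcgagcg
CANX, chr5:179698766-179698808, plus strand: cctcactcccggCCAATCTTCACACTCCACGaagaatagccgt
XBP1, chr22:28800591-28800633, minus strand: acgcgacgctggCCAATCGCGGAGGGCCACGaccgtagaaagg
HSP90B1, chr12:103930204-103930351, plus strand: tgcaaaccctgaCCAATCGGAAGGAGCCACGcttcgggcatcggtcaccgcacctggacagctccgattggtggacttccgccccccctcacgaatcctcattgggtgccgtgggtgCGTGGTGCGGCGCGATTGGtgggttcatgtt
CALR, chr19:12938372-12938414, plus strand: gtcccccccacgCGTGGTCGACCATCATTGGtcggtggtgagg
Counted from the start used in RefSeq, the element lay at -66 to -48 in HSPA5, at -86 to -68 in PDIA6 and at -52 to -34 in XBP1. HSP90B1 had copies at -194 to -176 and at -89 to -71.

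The second motif, known as ERSE-II, is ATTGG, any base and then CCACG, and was found in HERPUD1, HYOU1 and SDF2L1 (8.33% of the 36), against 19 of 27305 genes (0.0696%). None of these 3 genes passed the test in either direction. They are shown with the motif in capitals, on the other strand in HYOU1 and SDF2L1.
HERPUD1, chr16:56932013-56932047, plus strand: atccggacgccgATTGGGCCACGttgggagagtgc
SDF2L1, chr22:21642102-21642136, plus strand: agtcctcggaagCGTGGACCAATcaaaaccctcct
HYOU1, chr11:119057262-119057402, minus strand: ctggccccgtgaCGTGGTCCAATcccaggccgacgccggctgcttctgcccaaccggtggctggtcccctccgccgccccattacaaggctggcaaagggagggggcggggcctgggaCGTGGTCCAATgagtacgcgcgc
The core TGACGTGG, bound by XBP1 and ATF6, was found in HYOU1, SSR3 and TXNDC5, against 253 of 27305 genes (0.927%), and in HYOU1 it overlapped the first ERSE-II copy. The short motif CCACG, which is part of both longer elements, was found in 26 of the 36 genes (72.2%), in 42.1% of all genes with a window and in 56.8% of the 10492 of them that were tested. Of the 14 genes with a window that had fewer counts in EPZ libraries, 5 held the ER stress response element and 9 did not hold it in these windows.

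Library totals were 33970420 to 39749648 counts in EPZ libraries and 35042563 to 38132352 in control libraries. Levels are given as CPM, a gene's counts over the library total on a common scale, after TMM scaling, a correction for library composition. Every pair of libraries differed by more than sampling noise. Within a group, libraries correlated at 0.977 to 0.981 over genes on the log2 scale, and between groups at 0.954 to 0.975. EPZ replicate 1 stood apart from the other EPZ libraries on the second principal component (17.8, against -18.9 and -14.1). DOT1L mRNA was at 102, 79.7 and 99.1 CPM in EPZ libraries and at 69.4, 100.5 and 94.0 CPM in control libraries, and it did not pass the test (log2 fold change 0.09 ± 0.13, SE, adjusted p = 0.636). In the second fit described below, with GC content and length adjusted for, it was lower relative to genes of like GC content and length (-0.30, adjusted p = 0.0376). The inhibitor acts on the protein, so this mRNA does not check the labels. Of 9 epithelial and ductal markers, 5 (KRT7, KRT8, KRT18, MUC1 and SOX9) were above 1 CPM in every library. Taken over raw library totals, without TMM scaling, as for every marker here, the list summed to 6590 to 7647 CPM in EPZ libraries and 5646 to 6166 CPM in control libraries; the part of this difference in the results was not tested. KRT19 had 8 to 19 counts in EPZ libraries and 10 to 26 in control libraries, and EPCAM had 23 to 54 in EPZ libraries and 50 to 103 in control libraries. CDH1 and CFTR had 0 in every library, where a count of 0 allows up to 3. The line's annotation as ductal adenocarcinoma was thus met by part of its markers. Markers of acinar and endocrine cells were below 1 CPM in every library, with PRSS1, CPA1, CELA3A, AMY2A, INS and GCG at 0. Of 3 endothelial markers PECAM1 alone was above 1 CPM in every library. That list summed to 1.37 to 2.97 CPM in EPZ libraries and 1.71 to 3.17 CPM in control libraries. Of 5 fibroblast markers 3 were above 1 CPM in every library, and the list summed to 81.2 to 90.3 CPM in EPZ libraries and 79.5 to 87.1 CPM in control libraries. These 3 moved apart within that sum. COL1A1 had 1976 to 2556 counts in EPZ libraries and 1428 to 1896 in control libraries, DCN had 724 to 948 in EPZ libraries and 1016 to 1439 in control libraries, and LUM had 40 to 82 in EPZ libraries and 124 to 156 in control libraries. The part of these differences in the results was not tested.

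The comparison asked which ER folding and stress genes differed between EPZ and control libraries. HSP90B1 (GRP94, the ER member of the HSP90 family), CANX (calnexin, a membrane lectin that holds glycoproteins while they fold) and ERO1A (the oxidase that recharges protein disulfide isomerase) fell most, to 0.491, 0.563 and 0.551 of their control levels. The major chaperone HSPA5 (BiP) fell to 0.689 of its control level. CALR (calreticulin) and P4HB (protein disulfide isomerase), the members with the highest levels, did not pass the test. With edgeR's quasi-likelihood test and Benjamini-Hochberg adjusted p under 0.05 over all genes, 15 of the 39 genes (38.5%) fell in EPZ libraries, none rose, and 24 did not pass. Among all genes tested 18.7% fell and 15.0% rose, 33.7% in all. The median log2 fold change of the 39 genes was -0.30, with a range of -1.02 to 0.34, and that of all genes tested was -0.05. In 17 of the 39 genes (43.6%) every EPZ library lay below every control library, against 24.2% of all genes tested, and in 3 genes every EPZ library lay above, against 21.8% of all genes. HSP90B1 alone among them fell at least 2-fold, as did 1.99% of all genes.

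The 5 genes that fell both here and in the second fit described below were HSP90B1 (ENSG00000166598, chr12:103930107-103953645, plus strand), CANX (ENSG00000127022, chr5:179678628-179730925, plus strand), ERO1A (ENSG00000197930, chr14:52639916-52695900, minus strand), PDIA6 (ENSG00000143870, chr2:10783391-10837977, minus strand) and HSPA5 (ENSG00000044574, chr9:125234853-125241330, minus strand), all with GRCh38 coordinates of the count table. Of all 15496 genes tested, 573 fell in both fits.

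Fold changes of these genes followed the GC content of their transcripts. Over the 39 genes the log2 fold change correlated with GC content at Pearson's r of 0.80 and Spearman's rho of 0.80, and over 15487 genes with a transcript sequence at 0.59 and 0.66; genes share libraries and are not independent replicates, so these are descriptions. Among the 19 genes below 45% GC, 13 fell and none rose, while 43.1% of all genes in that range fell and 0.678% rose. The median log2 fold change in that range was -0.50 for these genes and -0.50 for all genes. Among the 14 genes with 45 to 55% GC, 2 fell (HSPA5 and PDIA6), and none rose, against 10.7% and 7.96% of all genes in the range. Among the 6 genes above 55% GC none fell and none rose, while 0.847% of all genes in that range fell and 38.5% rose; the median was 0.09 for these genes and 0.34 for all genes.

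The test was therefore also run with the smooth dependence of each library's counts on GC content and length removed, called the GC and length offset. Falling or rising in this fit is relative to genes of like GC content and length, and need not be a change in CPM. With the offset, 9 of the 39 genes (23.1%) fell and 1 rose, against 5.57% and 5.40% of 15487 genes. All 9 that fell had a mean of 134 CPM or more over the 6 libraries. Their standard errors in this fit were 0.07 to 0.10, against 0.29 for EDEM3 at 4.18 CPM. The shares of all genes were not matched for level, and the part of level in these shares was not tested. Medians were -0.12 for the 39 genes and -0.0044 for all genes. HSP90B1, CANX, ERO1A, PDIA6 and HSPA5 fell with and without the offset, as did 573 of all genes tested. PDIA4, HYOU1, SDF2L1 and P4HB fell with the offset alone, and DERL1 rose with it alone. Without the offset SDF2L1 and P4HB had log2 fold changes of 0.02 and 0.01. They were thus lower relative to genes of like GC content and length, and not in TMM-scaled CPM. As TPM, a measure defined below and not TMM-scaled, P4HB was lower in every EPZ library, while the groups of SDF2L1 overlapped. With the offset and 1 library left out, an alternative chosen after seeing the data, HSP90B1 and CANX fell in all 6 fits. ERO1A did not pass without EPZ replicate 3 (adjusted p = 0.0735), HSPA5 without EPZ replicate 2 (0.0812), and PDIA6 without EPZ replicate 2 or 3 (0.0683 at most). The part that GC content had in the fold changes of these genes was not tested.

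**Figure D1:**
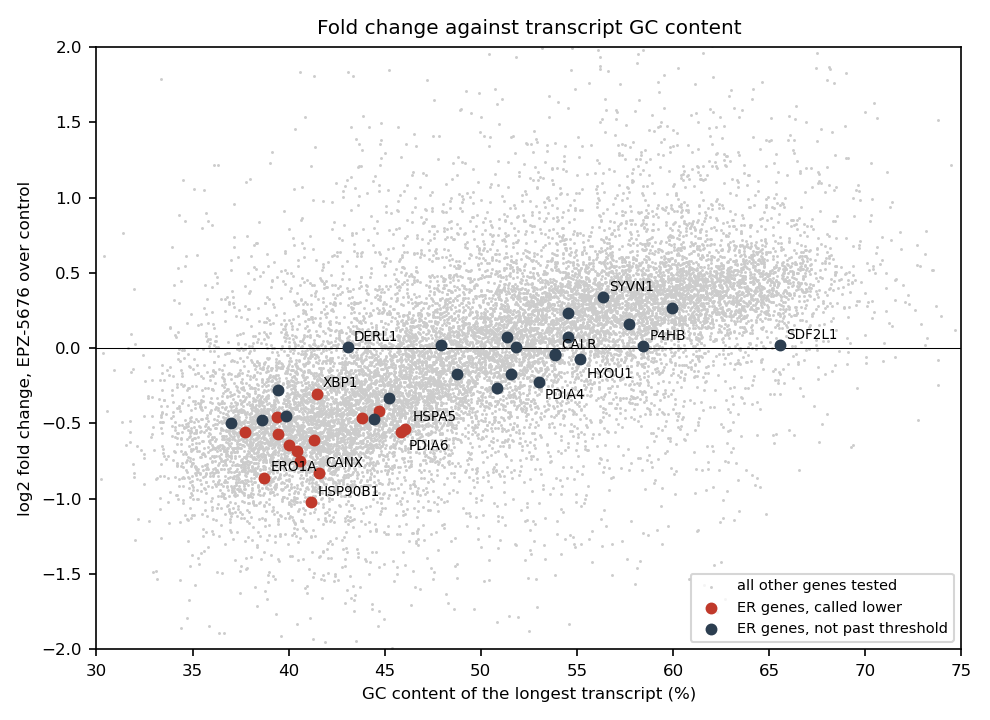
Log2 fold change (EPZ over control, vertical axis) against GC content of the longest transcript (percent, horizontal axis) for all genes tested (grey; points beyond the axes are not drawn) and the 39 ER genes (red, fell; dark, did not pass the test). The ER genes run along the grey cloud with r = 0.80. HSP90B1 (-1.02) lies below the median of all genes under 45% GC (-0.50). SDF2L1 (0.02) and P4HB (0.01) lie below the median of all genes above 55% GC (0.34).

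**Figure D2:**
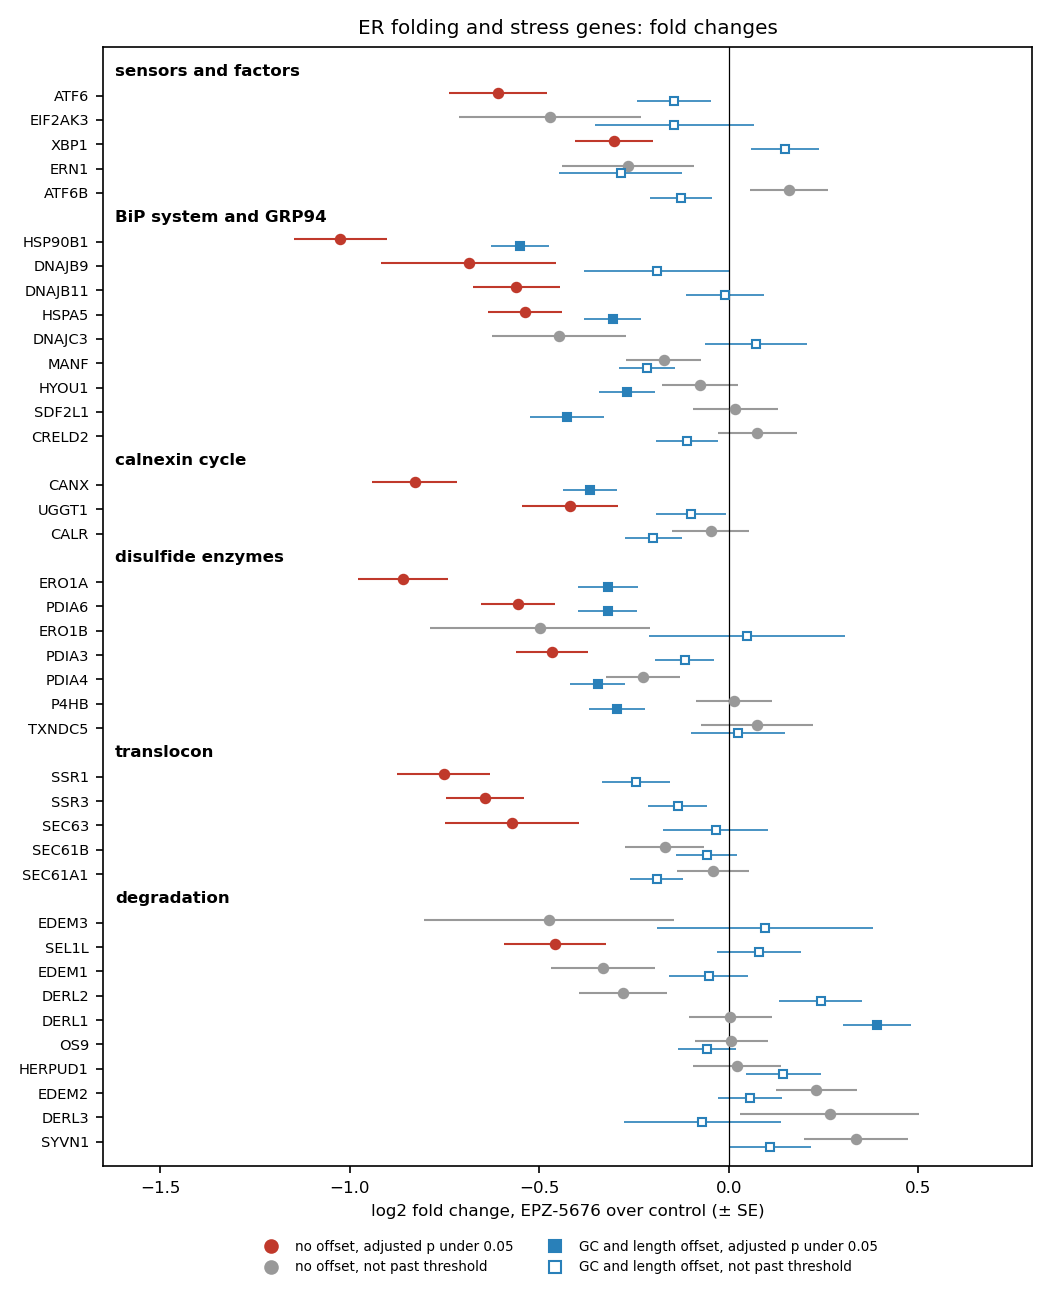
Log2 fold change (EPZ over control, horizontal axis) of each of the 39 genes with its standard error, sorted within role groups, without the GC and length offset (circles, red where the gene passed at adjusted p under 0.05) and with it (squares, filled where it passed). The 15 genes that fell without the offset run from HSP90B1 at -1.02 to XBP1 at -0.30, and HSP90B1 remains the lowest with the offset at -0.55.

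Among the sensors and factors, 2 of 5 fell, ATF6 and XBP1, and none fell with the offset. ATF6, the membrane-bound factor that is cut free in the Golgi under stress, had 24.8, 29.6 and 31.4 CPM in EPZ libraries, against 47.8, 39.2 and 44.0 CPM in control libraries. All EPZ libraries lay below all control libraries, and ATF6 fell by 0.61 ± 0.13 on the log2 scale (SE here and below; adjusted p = 0.00169; with the offset -0.14, adjusted p = 0.396). Its relative ATF6B had 84.9, 81.4 and 84.3 CPM in EPZ libraries and 68.4, 76.0 and 80.0 CPM in control libraries. The groups of ATF6B did not overlap, but the difference did not pass the test (0.16 ± 0.10, adjusted p = 0.249), and with the offset the value was negative, as for ATF6 (-0.13, adjusted p = 0.368). XBP1, the factor made active by IRE1 splicing of its mRNA, had 54.6, 55.9 and 54.99 CPM in EPZ libraries, against 69.7, 68.7 and 65.7 CPM in control libraries. The EPZ libraries were tightly grouped below the controls, and the fold change was the smallest of those that passed (-0.30 ± 0.10, adjusted p = 0.0282). Leaving out any 1 of the 6 libraries moved XBP1's adjusted p to 0.0536 to 0.0935, and with the offset its sign turned (0.15, adjusted p = 0.339). A count per gene does not separate spliced from unspliced XBP1 mRNA.

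The sensors that lead the other branches were lowly expressed. ERN1 (IRE1) had 10.8, 9.03 and 9.66 CPM in EPZ libraries and 12.2, 12.9 and 10.4 CPM in control libraries. EIF2AK3 (PERK), the kinase that slows translation, had 3.86, 4.19 and 4.68 CPM in EPZ libraries and 6.49, 4.29 and 6.89 CPM in control libraries. The groups overlapped in both genes, in EIF2AK3 through control replicate 2. Neither passed the test (ERN1 -0.27 ± 0.17, adjusted p = 0.254; EIF2AK3 -0.47 ± 0.24, adjusted p = 0.134).

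Of the 9 genes of the BiP system and GRP94, 4 fell (HSP90B1, HSPA5, DNAJB11 and DNAJB9) and 4 fell with the offset (HSP90B1, HSPA5, HYOU1 and SDF2L1). HSP90B1 had 209, 237 and 250.1 CPM in EPZ libraries, against 563, 385 and 468 CPM in control libraries. The highest EPZ library was well under the lowest control library, and the log2 fold change was -1.02 ± 0.12 (adjusted p = 1.8e-05; with the offset -0.55, adjusted p = 8.8e-05). HSPA5, the HSP70 of the ER and the partner that keeps the sensors silent, had 659, 659.7 and 704 CPM in EPZ libraries, against 1031, 962 and 945 CPM in control libraries. These groups did not overlap either (-0.54 ± 0.10, adjusted p = 5.3e-04; with the offset -0.31, adjusted p = 0.0103). DNAJB11 (ERdj3), a J-domain partner of BiP that binds unfolded clients, had 36.7, 38.0 and 38.9 CPM in EPZ libraries, against 61.3, 55.8 and 50.4 CPM in control libraries. Its groups were apart in level, with a log2 fold change of -0.56 ± 0.12 (adjusted p = 0.00128), and with the offset the value was -0.0096 (adjusted p = 0.969).

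DNAJB9 (ERdj4), a J-domain protein that acts on IRE1, fell by 0.69 ± 0.23 on the log2 scale (adjusted p = 0.0266). It lay at 3.96 to 5.53 CPM in EPZ libraries and 6.61 to 10.4 CPM in control libraries, and its call was lost without EPZ replicate 1 (0.114), EPZ replicate 3 (0.0518) or control replicate 1 (0.231). DNAJC3 (P58IPK), a co-chaperone that restrains PERK, had a log2 fold change of -0.45 (adjusted p = 0.0539). HYOU1, the nucleotide exchange factor of BiP, had 219, 194 and 202 CPM in EPZ libraries and 198, 234 and 215 CPM in control libraries, which overlapped (-0.07 ± 0.10; with the offset -0.27, adjusted p = 0.0217). SDF2L1, which works with ERdj3, had 162, 123 and 144 CPM in EPZ libraries and 156, 141 and 126 CPM in control libraries, also overlapping (0.02 ± 0.11; with the offset -0.43, adjusted p = 0.00685). HYOU1 and SDF2L1 are among the GC-rich genes of the list, at 55.2% and 65.5% GC. The small secreted stress proteins MANF (-0.17) and CRELD2 (0.08) did not pass the test.

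In the calnexin cycle, CANX and UGGT1 fell and CALR did not pass. CANX had 269, 307 and 306 CPM in EPZ libraries, against 597, 445 and 523 CPM in control libraries. All EPZ libraries were below all control libraries (-0.83 ± 0.11, adjusted p = 5.5e-05; with the offset -0.37, adjusted p = 0.00200). CALR, the soluble counterpart that binds the same monoglucosylated glycans in the lumen, had 1300.3, 1214 and 1134 CPM in EPZ libraries and 1240.5, 1340.5 and 1191 CPM in control libraries. Its groups overlapped throughout (-0.05 ± 0.10, adjusted p = 0.752; with the offset -0.20, adjusted p = 0.0906). UGGT1, the glucosyltransferase that marks misfolded glycoproteins for another round, had 35.7, 43.3 and 48.3 CPM in EPZ libraries, against 53.4, 52.3 and 64.6 CPM in control libraries. The gap between groups was small for UGGT1 (-0.42 ± 0.13, adjusted p = 0.0154; with the offset -0.10, adjusted p = 0.568), and the call was lost without EPZ replicate 1 (0.106) or control replicate 3 (0.116).

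**Figure D3:**
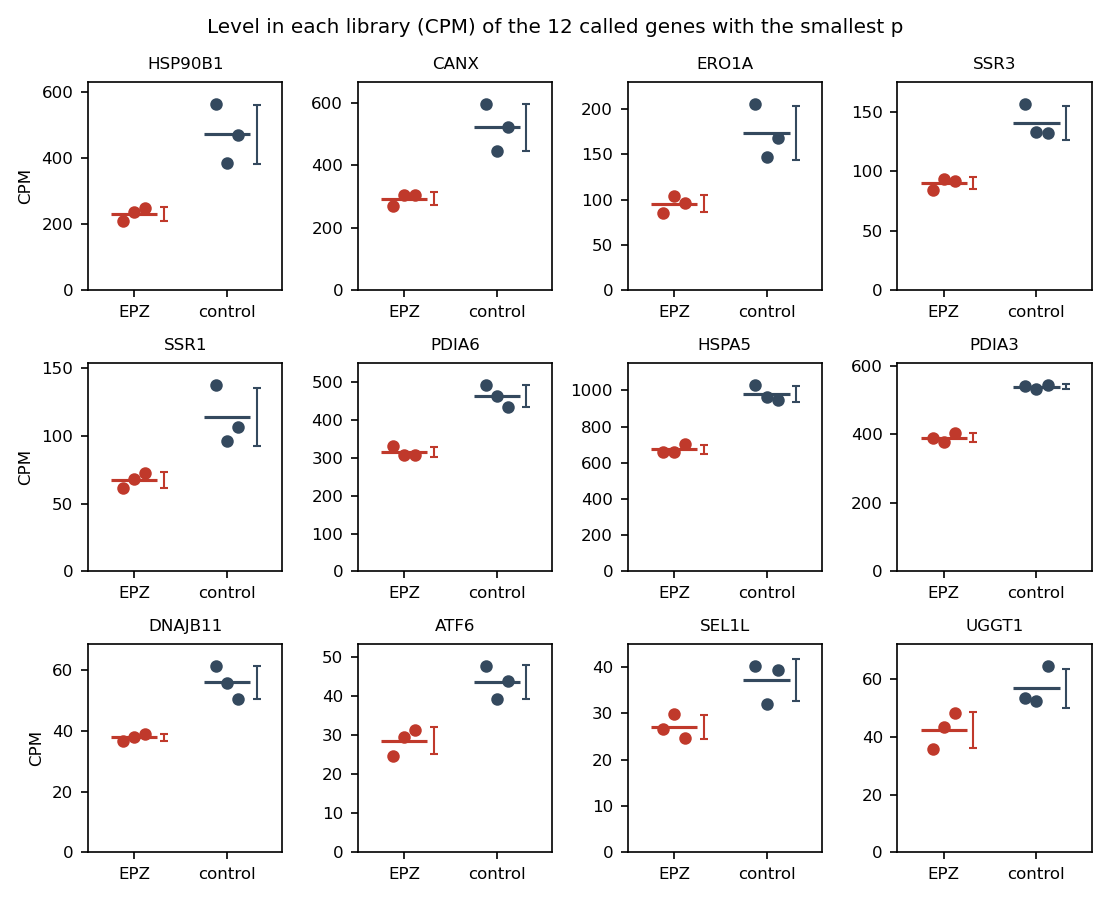
TMM-scaled CPM (vertical axes, from 0) in each library of the 12 genes that fell with the smallest p, with EPZ left of control, a line at each group mean and a bar of 1 SD to each side (n = 3 each). HSP90B1 lies at 209 to 250.1 CPM in EPZ libraries and 385 to 563 CPM in control libraries, and in none of the 12 genes do the groups overlap.

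Among the disulfide enzymes, 3 of 7 fell (ERO1A, PDIA6 and PDIA3), and 4 fell with the offset (ERO1A, PDIA6, PDIA4 and P4HB). ERO1A had 85.8, 105 and 96.1 CPM in EPZ libraries, against 206, 147 and 168 CPM in control libraries. The groups did not overlap (-0.86 ± 0.12, adjusted p = 6.9e-05; with the offset -0.32, adjusted p = 0.0114). PDIA6, an isomerase that also acts on the IRE1 sensor, had 331, 308 and 307 CPM in EPZ libraries, against 493, 464 and 435 CPM in control libraries. The EPZ libraries were all below the controls (-0.56 ± 0.10, adjusted p = 4.4e-04; with the offset -0.32, adjusted p = 0.0102). PDIA3 (ERp57), which works with calnexin and calreticulin on glycoproteins, had 389, 377 and 405 CPM in EPZ libraries, against 542, 532 and 545 CPM in control libraries. Replicates of PDIA3 were close together and its groups apart (-0.47 ± 0.10, adjusted p = 0.00124), but with the offset the value was -0.12 (adjusted p = 0.390).

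P4HB, which is also a subunit of prolyl 4-hydroxylase, had the highest CPM of the list, at 1997, 1779 and 1767 CPM in EPZ libraries and 1795, 1912 and 1783 CPM in control libraries. The groups overlapped and the log2 fold change was 0.01 ± 0.10 (adjusted p = 0.932), while with the offset it was -0.30 (adjusted p = 0.0122). PDIA4 (ERp72) had 315, 322 and 305 CPM in EPZ libraries and 339, 389.8 and 372 CPM in control libraries. Its groups did not overlap, yet it passed only with the offset (-0.23 ± 0.10, adjusted p = 0.0798; with the offset -0.35, adjusted p = 0.00303). ERO1B, the oxidase typical of secretory cells such as pancreatic islets, was near the low end at 2.09 to 4.10 CPM in EPZ libraries and 3.46 to 6.19 CPM in control libraries (-0.50, adjusted p = 0.195). TXNDC5, a further thioredoxin-domain isomerase, had a log2 fold change of 0.07.

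In the translocon group, 3 of 5 genes fell (SSR1, SSR3 and SEC63), and none fell with the offset. SSR3, a subunit of the TRAP complex that helps some signal sequences through the channel, had 84.6, 93.8 and 91.8 CPM in EPZ libraries, against 157, 133 and 132 CPM in control libraries. SSR1, another TRAP subunit, had 61.3, 68.5 and 72.4 CPM in EPZ libraries, against 138, 96.5 and 107 CPM in control libraries. Neither pair of groups overlapped (SSR3 -0.64 ± 0.10, adjusted p = 2.3e-04; SSR1 -0.75 ± 0.12, adjusted p = 2.4e-04), and with the offset neither passed (adjusted p = 0.307 for SSR3 and 0.0874 for SSR1). SEC63, the J-domain protein that recruits BiP to the channel, fell by 0.57 ± 0.18 on the log2 scale (adjusted p = 0.0172), with 11.9 to 14.7 CPM in EPZ libraries and 14.3 to 23.0 CPM in control libraries, which overlapped. Its call was lost without EPZ replicate 1 (0.0700), EPZ replicate 2 (0.0560), control replicate 1 (0.0650) or control replicate 3 (0.128). SEC61A1, the pore-forming subunit, had 272, 279 and 274 CPM in EPZ libraries and 272, 282 and 295 CPM in control libraries. Its groups overlapped (-0.04 ± 0.09, adjusted p = 0.767), and SEC61B had a log2 fold change of -0.17 (adjusted p = 0.223).

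Of the 10 degradation genes only SEL1L fell, and the group's median log2 fold change was 0.0055. SEL1L, the scaffold of the HRD1 ubiquitin ligase, had 26.5, 29.9 and 24.8 CPM in EPZ libraries, against 40.2, 31.9 and 39.4 CPM in control libraries. The highest EPZ library lay just below the lowest control library (-0.46 ± 0.13, adjusted p = 0.0126), the sign turned with the offset (0.08, adjusted p = 0.721), and the call was lost without EPZ replicate 3 (0.0731), control replicate 1 (0.0543) or control replicate 3 (0.0587). SYVN1 (HRD1), the ligase that SEL1L supports, stood higher, at 45.9, 39.6 and 48.0 CPM in EPZ libraries and 27.9, 38.3 and 39.5 CPM in control libraries. Its groups did not overlap, but it did not pass the test (0.34 ± 0.14, adjusted p = 0.0632). OS9, a lectin that hands glycoproteins to this ligase, had 296, 269 and 275 CPM in EPZ libraries and 278, 293 and 264 CPM in control libraries, with overlapping groups (0.01 ± 0.10, adjusted p = 0.964).

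The mannose-trimming EDEM proteins gave log2 fold changes of -0.33 for EDEM1 (adjusted p = 0.0672), 0.23 for EDEM2 (adjusted p = 0.101) and -0.47 for EDEM3 (adjusted p = 0.284). EDEM2 lay above the controls in every EPZ library, and EDEM1 and EDEM3 overlapped. The derlins, which form the exit channel, gave 0.0040 for DERL1, -0.28 for DERL2 and 0.27 for DERL3, none past the test, and DERL1 rose with the offset (0.39, adjusted p = 0.00615). HERPUD1, a small stress-induced membrane partner of HRD1, had 0.02. The degradation genes as summed CPM were at 598 ± 9.87 in EPZ libraries and 606 ± 7.86 in control libraries (SD, n = 3 each), a ratio of 0.985.

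**Figure D4:**
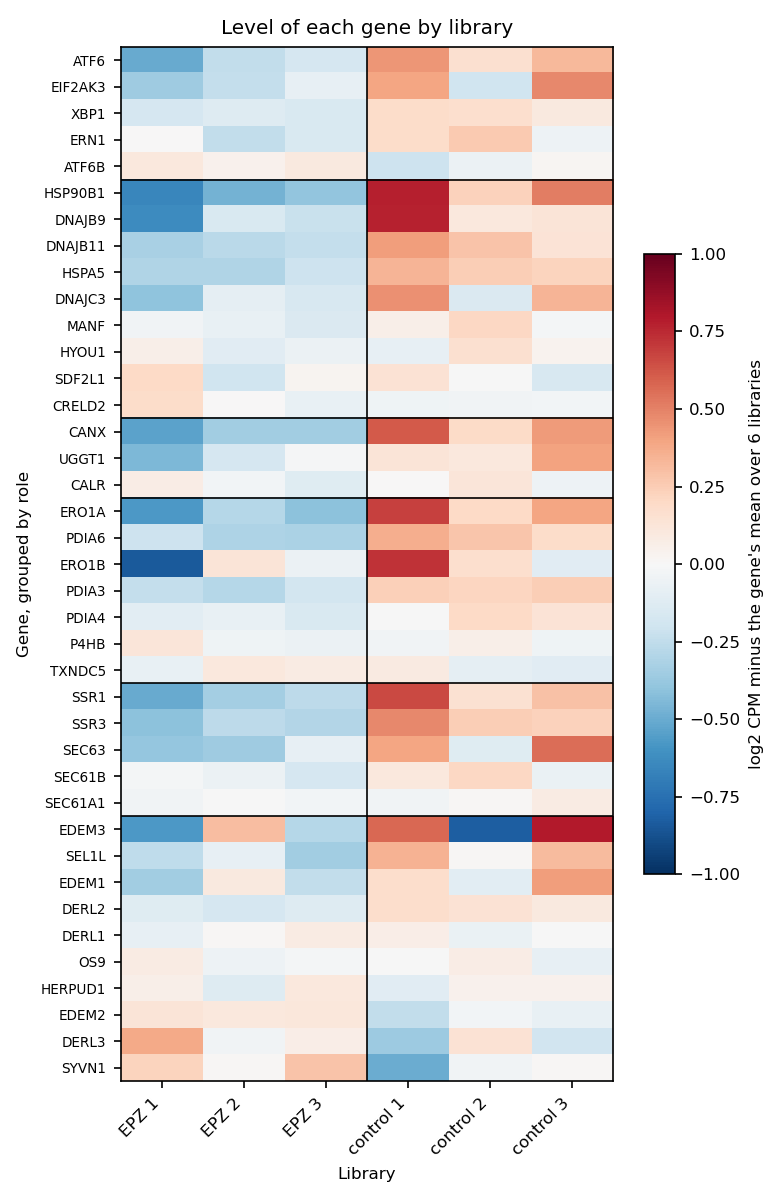
Log2 deviation of each of the 39 genes (rows, by role group) from its mean over the 6 libraries (columns, EPZ left of control), as colour from -1 to 1. HSP90B1, CANX and ERO1A are low in all 3 EPZ libraries and high in the 3 control libraries, most of all in control replicate 1.

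Summed over all 39 genes, levels were 7389 ± 179 CPM in EPZ libraries and 8830 ± 218 CPM in control libraries (SD, n = 3 each), a ratio of 0.837. By group the ratio was lowest for the BiP system and GRP94 at 0.722, then translocon at 0.814, calnexin cycle at 0.846, disulfide enzymes at 0.879 and sensors and factors at 0.888. CALR and P4HB make up much of these sums. Per gene length, as TPM (transcript share on a common scale, without TMM scaling and used to order levels), the highest were CALR at 1317 ± 45.5 in EPZ libraries and 1484 ± 24.9 in control libraries, and P4HB at 1024 ± 4.71 in EPZ libraries and 1106 ± 8.79 in control libraries. HSPA5 followed with 509 ± 45.4 TPM in EPZ libraries and 804 ± 55.7 TPM in control libraries. The lowest was EDEM3, at 1.33 ± 0.488 TPM in EPZ libraries and 2.03 ± 1.04 TPM in control libraries (SD, n = 3 each throughout).

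Deviations differed in size between libraries of a group, both for the genes that fell and for all genes of low GC content. Over the 15 genes that fell, the median log2 deviation from the gene's mean was -0.41, -0.28 and -0.24 in the EPZ libraries and 0.42, 0.19 and 0.29 in the control libraries. These 15 were picked by their fall in the same libraries, so the direction was fixed in advance, and 13 of them were below 45% GC. Over all genes below 45% GC the median was -0.39, -0.17 and -0.18 in the EPZ libraries and 0.40, 0.08 and 0.29 in the control libraries. The 19 genes of the list below 45% GC gave -0.41, -0.24 and -0.18 in EPZ libraries and 0.44, 0.15 and 0.32 in control libraries. The 24 genes that did not pass gave -0.0084, -0.04 and -0.06 in EPZ libraries and 0.03, 0.03 and -0.01 in control libraries. EPZ replicate 1 and control replicate 1 were the extremes for the 15 genes and for all genes below 45% GC. Leaving out any 1 library gave 11 to 18 genes of the list that fell, and 0 or 1 that rose.

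Ratios of related genes within a library do not depend on scaling between libraries, and 7 pairs were compared by an exact permutation test (two-sided), in which 3 against 3 cannot go below p = 0.1. The pairs were chosen with earlier results of these data known, so their p-values are descriptions and not independent tests. The log2 ratio of CANX to CALR averaged -2.05 ± 0.20 in EPZ libraries and -1.28 ± 0.28 in control libraries (SD, n = 3 each), a difference of -0.77, with exact p = 0.1 and p = 0.175 adjusted over the 7 pairs. ATF6 to ATF6B differed by -0.77, HSP90B1 to HSPA5 by -0.47 and DERL1 to DERL2 by 0.28, and in these 4 pairs the groups did not overlap (exact p = 0.1 and adjusted p = 0.175 each). The groups overlapped for EDEM1 to EDEM2 (-0.56), EDEM3 to EDEM2 (-0.60) and ERO1A to ERO1B (-0.34), with adjusted p of 0.28 to 0.4. Members of these pairs differ in GC content, for example CANX at 41.6% and CALR at 53.9%, and ATF6 at 41.3% and ATF6B at 57.7%.

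**Figure D5:**
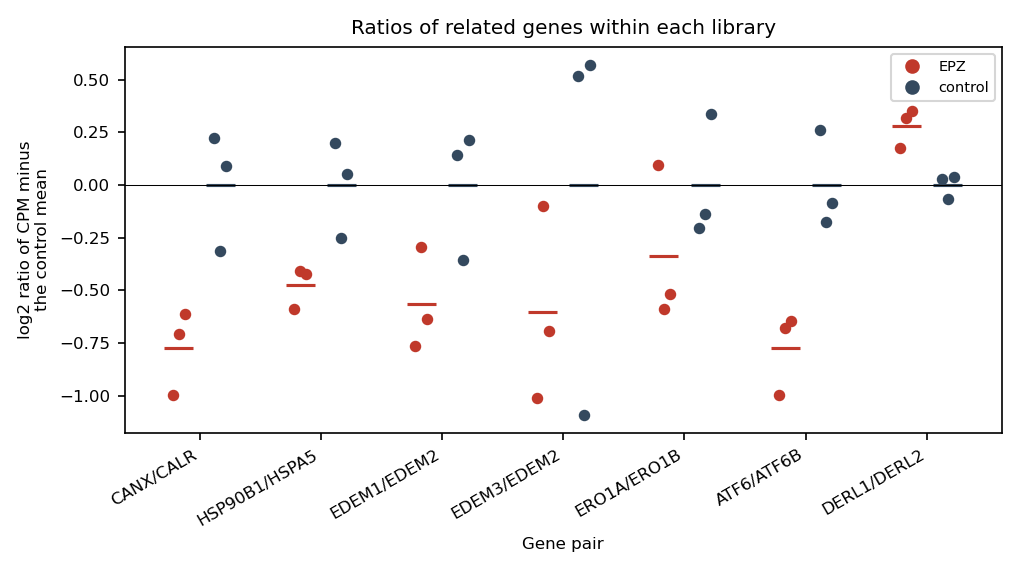
Log2 ratio of the CPM of 2 related genes within each library, minus the mean of the control libraries (vertical axis), for 7 pairs, with EPZ left of control and a bar at each mean. The EPZ and control groups are apart for CANX to CALR, HSP90B1 to HSPA5, ATF6 to ATF6B and DERL1 to DERL2, and overlap in the other 3 pairs.

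A wider set of 120 other ER pathway genes gave 116 tested, of which 42 fell and 18 rose (36.2% and 15.5%), against 18.7% and 15.0% of all genes tested. The share that rose was near that of all genes. With the offset 15 fell (12.9%) and 9 rose, against 5.57% and 5.40% of all genes. Of the genes named in this paragraph as falling, TUSC3, OSTC, SRP72, MCFD2 and ERLEC1 also fell with the offset. SRP9 (-0.18, adjusted p = 0.148), DNAJC10 (-0.33, adjusted p = 0.0835), TMX1 (-0.18, adjusted p = 0.396), HSPA13 (-0.32, adjusted p = 0.0950) and FKBP14 (-0.25, adjusted p = 0.297) did not pass with it. In the oligosaccharyl transferase, which adds glycans to new proteins, 5 of 12 fell and none rose, among them TUSC3 (-0.83 ± 0.11, adjusted p = 3.6e-05) and OSTC (-0.87 ± 0.12, adjusted p = 7.6e-05), while RPN1 did not pass (-0.18). In other translocon and signal recognition genes 9 of 19 fell and none rose, among them SRP72 (-0.87 ± 0.12) and SRP9 (-0.76 ± 0.12), while SSR4 did not pass (0.28). In glycan trimming and lectins 5 of 11 fell and 2 rose, led by MCFD2 (-0.82 ± 0.10) and ERLEC1 (-0.99 ± 0.13), while GANAB did not pass (0.07). In other thiol oxidoreductases 6 of 13 tested fell and 1 rose, with DNAJC10 (-0.95 ± 0.17) and TMX1 (-0.75 ± 0.17) falling and PRDX4 not passing (0.04). In other chaperones and proline isomerases 5 of 17 fell and 1 rose, with HSPA13 (-0.89 ± 0.15) and FKBP14 (-0.81 ± 0.19) falling and FKBP10 not passing (-0.0045; with the offset it fell, -0.33, adjusted p = 0.00581).

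Among other degradation genes 6 of 22 fell and 7 rose, with RNF5, a membrane ubiquitin ligase, rising (0.49 ± 0.11, adjusted p = 0.00199), MARCH6 falling (-0.47 ± 0.10, adjusted p = 0.00222) and UBE2G2 not passing (-0.22). With the offset RNF5 also rose (0.39, adjusted p = 0.00245), while MARCH6 turned sign and did not pass (0.06, adjusted p = 0.683). Among other stress sensors and factors 3 of 12 tested fell and 6 rose, including the ER-bound factor CREB3 (0.62 ± 0.10) and the cell death gene BAX (0.68 ± 0.11), while NFE2L1 did not pass (0.18). CREB3 and BAX also rose with the offset (0.37 and 0.38). In the output of the PERK branch 3 of 10 fell and 1 rose. Of the phosphatase subunits, PPP1R15B fell (-0.62 ± 0.14) and PPP1R15A rose (0.41 ± 0.10), and neither passed with the offset (-0.25, adjusted p = 0.154, and 0.10, adjusted p = 0.480). CEBPB did not pass (0.21) and fell with the offset (-0.25, adjusted p = 0.0240). ATF4 and DDIT3, named here after their values were seen, had log2 fold changes of -0.29 (adjusted p = 0.0235; with the offset -0.54, adjusted p = 1.0e-04) and -0.01 (adjusted p = 0.983; with the offset 0.05).

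Several counts of the list may share reads with an overlapping gene or a pseudogene copy, because no source used here names the counting tool or its strand setting. Shared reads were not measured. For 12 of the 39 genes an overlapping gene had at least 10% of their mean count, and 3 of them fell (DNAJB11, DNAJB9 and SSR1). The genes PNPLA8 and THAP5, on the opposite strand of DNAJB9, had 143% and 66.3% of its mean count, and TBCCD1, opposite DNAJB11, had 13.7%. The overlapping pseudogene AL139095.2 had 28.8% of the mean count of SSR1, the pseudogene PDIA3P1 had 3.99% of that of PDIA3, and SYVN1 overlaps FAU on the same strand, which had a far higher count. RNF5 and SRP9 of the wider set also have pseudogene copies. Values of these genes are uncertain to that extent.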

How the data were processed

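Poly(A) RNA was sequenced from 3 EPZ and 3 control libraries of SW1990 cells, grouped by sample title; the labels' protocols give TRIzol extraction, oligo(dT) selection and dUTP second-strand libraries, which mark strand. Per the submitters' processing notes, HISAT2 2.2.1 placed the reads on GRCh38; no source used here names the counting tool or its strand setting. The table deposited by the authors holds whole-number read counts per gene, not normalized. Starts, ends and exon lengths of all 58735 genes equalled those of GENCODE release 29, whose longest transcript gave GC content and length.

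The test was edgeR 4.0.16 under R 4.3.3 (filterByExpr by group with a minimum count of 10, TMM, robust quasi-likelihood test, two-sided, Benjamini-Hochberg over 15496 genes, threshold 0.05), after the steps had been tested on simulated data. The offset was a natural spline of 5 degrees of freedom per property and library. TPM used the deposited gene length. DESeq2 1.42.0, limma 3.58.1, other filters, scalings and left-out libraries were alternatives. Motifs were searched with Python 3.11.15. The members, lists and pairs were chosen with earlier results of these data known. Values per library are given for the 12 genes that fell with the smallest p, the 5 sensors and factors and the 5 most abundant genes that did not pass, and also for HYOU1, SDF2L1 and SYVN1, added after their values were seen; in the wider lists, the 2 called genes with the smallest p and the most abundant uncalled gene are named per group.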

Additional observations from a re-analysis of the deposited data

How the results depend on the processing

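Over the 39 genes and 17 alternative settings, 580 values kept their side of the threshold, and 36 of these changed sign with no call in either fit. A further 46 lost a call, 25 gained one and 12 changed sign where either fit made a call. Of the 36 sign changes without a call, 24 were in the settings with an offset. HSP90B1, CANX, ERO1A, PDIA6 and HSPA5 were called in all 17. The genes of the list that fell (15) numbered 9 with the GC and length offset, 9 with the GC offset and 9 with the offset and replicate block; leaving out 1 library gave 11 to 18, and with the offset as well 9, 5 and 5 without EPZ replicates 1, 2 and 3, and 9, 8 and 10 without control replicates 1, 2 and 3. The genes that rose (0) numbered 2 with DESeq2 and 1 with RLE scaling, the 1 CPM filter, protein-coding genes alone, each offset and each offset fit with a library left out; leaving out 1 library gave 0 to 1. At an unadjusted p under 0.05, 2 genes were higher, SYVN1 and EDEM2, and SYVN1 passed with RLE scaling (adjusted p = 0.0349) and DESeq2 (0.0348). The list's median log2 fold change (-0.30) was -0.26 with DESeq2, -0.26 with RLE scaling, -0.12 with the GC and length offset, -0.11 with the GC offset, -0.12 with offset and block, and -0.31 to -0.27 with a library left out. Over all genes, 863, 729 and 685 fell and 836, 761 and 688 rose with the GC and length offset, the GC offset and the offset with block, and 1753 to 3167 fell and 1350 to 2780 rose with a library left out. Of the other ER genes, 15, 13 and 14 fell and 9, 10 and 8 rose in those 3 offset fits, 10 rose with the replicate block alone, and 10 to 22 rose with a library left out. In the same order of 3 fits, the sign turned to 0.080, 0.077 and 0.073 for SEL1L, to 0.15, 0.16 and 0.15 for XBP1, to -0.43, -0.45 and -0.42 for SDF2L1 and to -0.30, -0.28 and -0.30 for P4HB; the cause was not tested. With control replicate 2 left out, 5 further genes passed and 1 did not.

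Same-numbered libraries' deviations from their group means correlated at -0.11, -0.09 and 0.05, and those of differently numbered libraries at -0.08 to 0.15. Deviations from a mean of 3 libraries depend on one another. These values therefore cannot tell whether same-numbered libraries were handled together. The replicate block gave 13 genes of the list that fell (DNAJB9 and XBP1 no longer passed, with adjusted p = 0.0692 and 0.0807) and 0 that rose, and 2219 lower and 1677 higher over all genes. Depth, at 33970420 counts or more per library, limits the genes of a few CPM, such as EDEM3, ERO1B, EIF2AK3, DERL3 and DNAJB9, whose standard errors were 0.23 to 0.33.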

Other observations

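The leukocyte marker PTPRC had 0, 8 and 0 counts in the EPZ libraries and 0, 153 and 0 counts in the control libraries, so nearly all of its counts lay in control replicate 2. CD3E had 14 counts in that library and 0 in the others. The part of these counts in the values of the ER genes was not tested; leaving out control replicate 2 is among the alternatives above.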
